A study of Mus musculus with 2 samples.

Results

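The genes described here encode the proteins of the cytosolic ribosome, followed in mouse ureter explants after treatment with BIO, an inhibitor of the kinase GSK3 that is used to activate canonical WNT signaling. Members were taken by name from the array. A biological probe was included when its gene name was Rpl or Rps followed by a digit, Rplp0 to Rplp2 or Rpsa, and names of pseudogenes (-ps) and of the Rps6k kinases were left out. This gave 86 genes with 195 probes, of 29924 gene names with 39429 probes on the array. Of the 86 genes, 46 encode proteins of the large subunit (60S), 31 encode proteins of the small subunit (40S), 8 are paralogs of such genes and 1, Rps19bp1, encodes a binding protein of RPS19 that is not part of the ribosome. A gene named Rpl37rt, placed on chromosome 5, was counted among the 60S genes by its name, and whether its probe reads Rpl37 is uncertain. Fau, which encodes a ubiquitin-like fusion, falls outside the naming rule and is given with the related genes.

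Ureters of wildtype NMRI embryos at E12.5 were dissected free of kidney and bladder, and explants were cultured for 18 h in serum-free medium with either 10 µM BIO or the solvent DMSO at 2 parts per 1000. Each of the 2 arrays held RNA of a pool of control ureters in one channel and RNA of a pool of BIO-treated ureters in the other. In replicate 1 the BIO RNA carried the red dye, and in replicate 2 it carried the green dye. A pool contains mesenchyme (UM), epithelium (UE) and other cells of the ureter, so fewer cells of a type and less RNA per cell cannot be told apart.

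Ribosomes translate mRNA into protein. The 40S subunit binds the mRNA and reads its codons, and the 60S subunit joins the amino acids and releases the growing chain through its exit tunnel. The mRNAs of ribosomal proteins are among the most abundant of dividing cells. Most of them start with a C followed by a run of pyrimidines, the 5′ terminal oligopyrimidine (TOP) motif, through which growth signals control their translation as a group. Transcription of ribosome biogenesis genes is known to respond to MYC.

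All values below are log2 ratios of BIO over control on the same array unless an intensity is named, and each gene is read from its brightest probe, by mean log2 intensity over both channels and arrays. "Rose" and "fell" are used for an adjusted p at or under 0.05 in the limma fit across 28824 probes. The array carried 157716 biological spots, 4 for each probe, and 0 spots were saturated. The ratios of the arrays correlated with Pearson's r = 0.811 across the 21598 genes tested, which are not independent replicates. WNT target genes were strongly changed, with 6 of 6 risen and a median of 1.73. All 8 mesenchyme and all 8 epithelium markers were well above background in both groups, and 6 of each list fell. The endothelium list fell in 6 of 6 genes, and its summed intensity was 70480.0 to 73420.0 in control and 11240.0 to 18770.0 in BIO. The proliferation list rose in 6 of 6 genes, and its summed intensity was 110300.0 to 122900.0 in control and 201500.0 to 209500.0 in BIO. Of the macrophage, nerve and erythroid lists, 3 of 5, 2 of 4 and 1 of 5 genes fell. No marker of these lists was below background in either group. The part of these shifts in the ribosomal protein ratios was not tested.

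The ribosomal protein genes shifted little with BIO. Of 85 genes tested, 3 rose, 0 fell and 82 did not pass the test, and 15 of the 85 had an unadjusted p under 0.05. That was so for 7928 of all 21598 genes tested. Among all genes tested, 9.14% rose and 14.8% fell, 23.9% in either direction, against 3.53% of the ribosomal protein genes. The median over the 85 genes was 0.155, beside -0.008 over all genes. All 85 intervals at 95% lay between -1 and 1. With this normalization, a 2-fold change of any of these genes, as measured by its brightest probe, thus lay outside its interval. For 57 genes the interval also lay between -0.5 and 0.5. The highest upper bound was 0.69, for Rps20, which is 1.61-fold, and the lowest lower bound was -0.44, for Rps4l. The intervals do not include differences between normalizations. With median centring the median of the 85 genes was 0.50 and the highest ratio 0.76. The SD of the mean ratios was 0.116 among the ribosomal protein genes and 0.422 among all genes. Among the 997 other genes whose brightest probe was at least as bright as that of the dimmest core gene, 6.82% rose and 15.3% fell, the median was 0.082 and the SD was 0.312.

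The 3 genes that rose were Rps20, Rpl12 and Rpl36a. None of the 3 passed with the signals processed by the scanner software (adjusted p from 0.0927 to 0.101, limma) or with a background offset of 16 (0.0597 to 0.0669), and without the filter on dim probes Rpl36a alone passed. The dimmest probes of Rpl12 (0.37, adjusted p = 0.0713, limma) and Rpl36a (0.30, adjusted p = 0.0976, limma) did not pass. Probes of Rps20 and Rpl36a that overlap the brightest one also rose (0.39 each). Rps20 encodes a protein in the head of the 40S subunit. Its normalized intensity was 147100.0 in control and 218400.0 in BIO in replicate 1, and 164700.0 and 194500.0 in replicate 2. BIO was the higher channel on both arrays, and the log2 ratio was 0.41 ± 0.12 (SE, n = 2, adjusted p = 0.0463, limma). Rpl12 encodes a 60S protein at the base of the stalk that contacts the translation factors. Its normalized intensity was 140400.0 and 202600.0 in control and BIO of replicate 1, and 155000.0 and 186900.0 in replicate 2. The ratio was 0.40 ± 0.12 (SE, n = 2, adjusted p = 0.0414, limma), with the same direction on both arrays. Rpl36a, a 60S protein gene on the X chromosome, gave 107600.0 in control and 138600.0 in BIO in replicate 1, and 103200.0 and 133600.0 in replicate 2. Both arrays gave a ratio of 0.37, and this gene had the lowest adjusted p of the group (0.0413, limma). The next highest ratios, none of which passed, were those of Rps4x (0.33), Rpl13a (0.33), Rps21 (0.32), Rpsa (0.31), Rpl7a (0.30), Rps18 (0.30) and Rps3 (0.30), with adjusted p from limma between 0.0641 and 0.132.

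**Figure D1:**
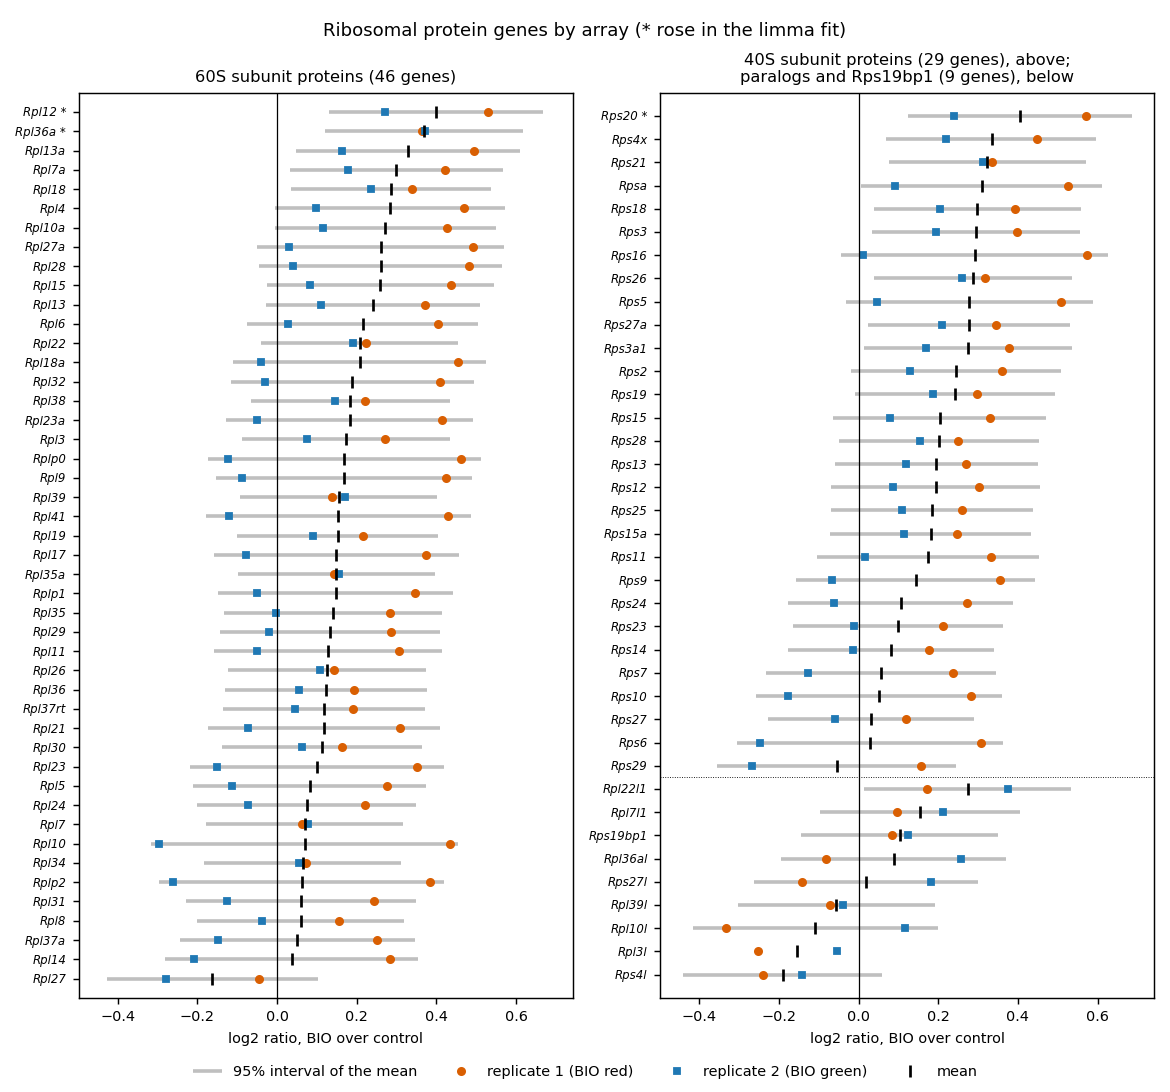
Log2 ratio of BIO over control (x axis) for 84 of the 86 genes (y axis), with 60S genes on the left and 40S genes, paralogs and Rps19bp1 on the right. Circles are replicate 1, squares are replicate 2, black marks are the means and grey bars the 95% intervals, with Rpl3l untested and without a bar. Nearly all orange circles lie to the right of 0, whereas the blue squares of many genes lie to its left.

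The ratios of these genes were higher in replicate 1 than in replicate 2. Among the 77 core genes, those of the 46 60S and 31 40S proteins, 76 had a ratio above 0 in replicate 1 and 44 in replicate 2. The core ratios ran from -0.045 to 0.57 in replicate 1 and from -0.30 to 0.37 in replicate 2, so the ranges of the arrays overlapped. In 73 of 77 core genes replicate 1 was higher than replicate 2, and in 32 the arrays differed in sign. The median over the 85 genes was 0.30 in replicate 1 and 0.054 in replicate 2. Across the 77 core genes the ratios of the arrays correlated with r = 0.187 and Spearman's rho = 0.145, a description over genes that share both arrays. The probes of these genes were bright, and 61 core genes were among the brightest 1% of all genes on the array. Within the core, the difference between the arrays went with probe brightness (r = 0.632, rho = 0.707, n = 77 genes). Rpl10, a 60S protein gene, had the brightest core probe, with a ratio of 0.435 in replicate 1 and -0.30 in replicate 2. The BIO RNA was red in replicate 1 and green in replicate 2, so dye and array cannot be told apart. Other genes had a like difference at the same brightness. Among 281 probes of other genes between 17 and 18 on the log2 intensity scale, the median was 0.27 in replicate 1 and -0.044 in replicate 2, beside 0.31 and 0.029 for the 111 probes of ribosomal protein genes in that range.

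**Figure D2:**
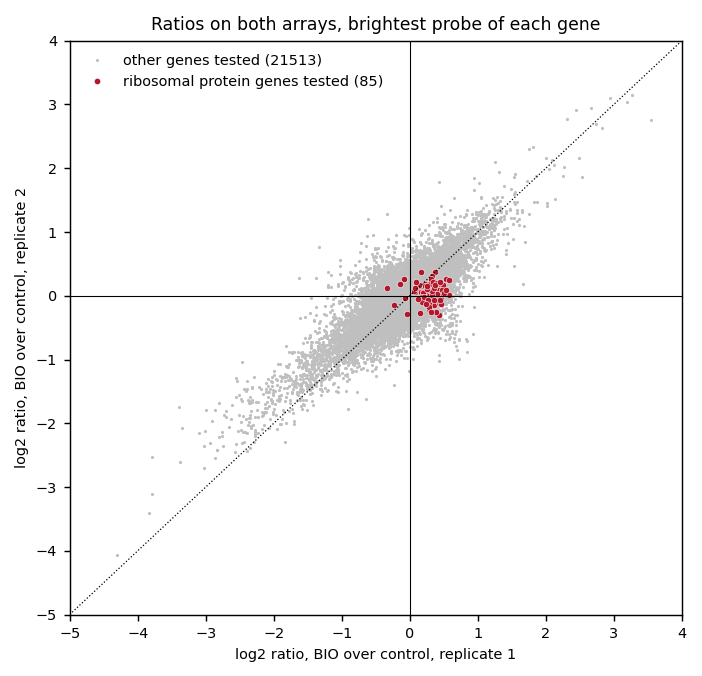
Log2 ratio of BIO over control in replicate 1 (x axis) and replicate 2 (y axis) for the brightest probe of every gene tested, with 85 ribosomal protein genes in red and 21513 other genes in grey. The dotted line marks equal ratios. The red points form a compact group close to 0, mostly below the line.

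The 60S genes had a median of 0.15, with 2 risen and 0 fallen of 46, and the range was -0.16 to 0.40. The P stalk recruits and activates the elongation factors. Rplp0, its anchor, had 0.46 and -0.12 on the arrays of replicates 1 and 2, and averaged 0.17. Rplp1 had a mean of 0.15 and Rplp2 a mean of 0.062, and all 3 stalk genes differed in sign between the arrays. RPL5 and RPL11 travel with the 5S rRNA into the 60S subunit and, when free, bind the p53 regulator MDM2. Rpl5 had 0.28 in replicate 1 and -0.11 in replicate 2, and Rpl11 had 0.31 and -0.051. Neither passed the test. The 7 genes of proteins at the tunnel exit (Rpl17, Rpl19, Rpl23a, Rpl26, Rpl31, Rpl35 and Rpl39) had a median of 0.15, with 0 risen, and a range of 0.060 to 0.18. Rpl14 had a mean of 0.037. Rpl27 had the lowest value of the core. Its normalized intensity was 171600.0 in control and 166300.0 in BIO in replicate 1, and 170500.0 and 140500.0 in replicate 2. BIO was the lower channel on both arrays, but the ratio of -0.16 ± 0.12 (SE, n = 2, adjusted p = 0.361, limma) did not pass.

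The 40S genes had a median of 0.195, with 1 risen and 0 fallen of 31, and the range was -0.055 to 0.405. Whether the subunits differed was not tested. The 4 genes of proteins that line the mRNA channel (Rps2, Rps3, Rps9 and Rps23) had a median of 0.19, with 0 risen. Rps6, whose protein is a target of the S6 kinases, had 0.31 in replicate 1 and -0.25 in replicate 2. Its mean of 0.030 on the brightest probe was thus among the 10 lowest of the genes tested, as were those of Rps27 (0.031) and Rps29 (-0.055). Dimmer probes of Rps6 gave means of 0.25 and 0.35, above 0 on both arrays, and neither passed. The brightest probes of Rps27 and Rps29 are placed by the array file on another chromosome than the RefSeq gene, so it is uncertain from which copy their signal came. In 11 of all 195 probes the placement was on another chromosome or, for a probe of Rps3, missing. These values are uncertain in that respect. Mutations in ribosomal protein genes cause Diamond-Blackfan anemia, and the 17 genes of that list had a median of 0.13, with 0 risen and 0 fallen.

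The paralogs had mean ratios from -0.19 to 0.27, and of 7 tested 0 rose and 0 fell. Rpl22l1, the paralog of Rpl22, had the highest value, with 0.17 in replicate 1 and 0.375 in replicate 2 (adjusted p = 0.122, limma), beside 0.22 and 0.19 for Rpl22 itself. Rps4l had the lowest, with -0.24 and -0.14 (adjusted p = 0.253, limma). Rps27l, a paralog that p53 is known to induce, had -0.14 in replicate 1 and 0.18 in replicate 2. Rpl7l1 had a mean of 0.15 and Rpl36al a mean of 0.088. Rpl39l (-0.056) and Rpl10l (-0.11), known for expression in testis, were tested on dim probes, with normalized intensities from 94.1 to 141. Rpl3l, the form of muscle, was not well above background and was not tested. In the pairs of probes compared, the highest identity between a core gene and its paralog was 74.1%, over 27 overlapping bases of Rpl3 and Rpl3l. Only probe was compared with probe, so this does not show whether a probe also binds the transcript of the paralog. Rps19bp1 had 0.083 in replicate 1 and 0.12 in replicate 2.

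The result depended on which probe of a gene was read. Over all 192 tested probes of the group, 29 rose and 0 fell, beside 8.95% risen and 14.3% fallen among all probes, and 22 genes had at least 1 risen probe. In 21 genes a probe other than the brightest passed the test. Among the 12 tested probes with a mean log2 intensity of 12 or less, 8 rose and the median was 0.58. Between 12 and 15 the count was 2 of 8 with a median of 0.22, and between 15 and 16 it was 6 of 12 with a median of 0.37. Between 16 and 17 it was 9 of 49 with a median of 0.25, and between 17 and 18 it was 4 of 111 with a median of 0.16. The medians thus did not fall in steady order with brightness. Of the probes of other genes, 1610 of 17847, 764 of 8487, 100 of 1164, 65 of 853 and 11 of 281 rose in the same ranges. The part of brightness in these ratios was not tested. When each gene was represented by its dimmest tested probe, a choice made after seeing the data, 20 of 85 genes rose and 0 fell, with a median of 0.23, beside 9.26% risen and 13.9% fallen among all genes.

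In 16 genes the dimmest and the brightest tested probe differed by more than 2 on the log2 intensity scale. In these the dimmest probe was higher by a median of 0.42, was higher on both arrays in 11 genes and lower on both in 0, and rose in 11. The difference between the probes passed the same limma test for Rps15a (0.72), Rpl17 (0.68), Rpl14 (0.63), Rps3 (0.61) and Rpl31 (0.605). Among all 5625 genes with several tested probes, the dimmest probe was significantly higher in 3.27% and lower in 1.64%. Among the 135 other genes with a brightest probe at 16 or more and such a gap, the median difference was 0.25, 67.4% were higher on both arrays and 13.3% were significantly higher. The corresponding shares of the 16 genes were 68.8% and 31.2%, so the share higher on both arrays was close to that of the other genes. The dimmest probe rose in 15 and fell in 13 of those 135 genes, beside 11 risen and 0 fallen of the 16. Among all 2562 genes with such a gap it rose in 204 and fell in 274.

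The genes of this set were named after their values were seen. Rps15a encodes a 40S protein. Its dim probe (chr7:125248322-125248381, mm9) read 526 in control and 1004 in BIO in replicate 1, and 470.1 and 861.5 in replicate 2. Both arrays gave close to a doubling (0.93 and 0.87, adjusted p = 0.000817, limma), while the brightest probe of the same gene gave 0.25 and 0.115. Rps3 encodes a 40S protein at the mRNA entry. Its dim probe read 5064 and 9434 in replicate 1, and 4315 and 8084 in replicate 2, a mean ratio of 0.90 (adjusted p = 0.000808, limma), where the brightest gave 0.30. The dim probe of Rpl31, a 60S protein at the tunnel exit, read 7367 and 11720.0 in replicate 1, and 6615 and 10450.0 in replicate 2. Its ratio was 0.67 on replicate 1 and 0.66 on replicate 2 (adjusted p = 0.00346, limma), while the brightest probe gave 0.24 and -0.125. In each of these genes the dim probe had BIO above control on both arrays, with little spread between them. Rpl13a, known also for silencing translation of inflammatory mRNAs, had 2 further probes that rose, with means of 0.73 and 0.72, beside 0.33 for its brightest.

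**Figure D3:**
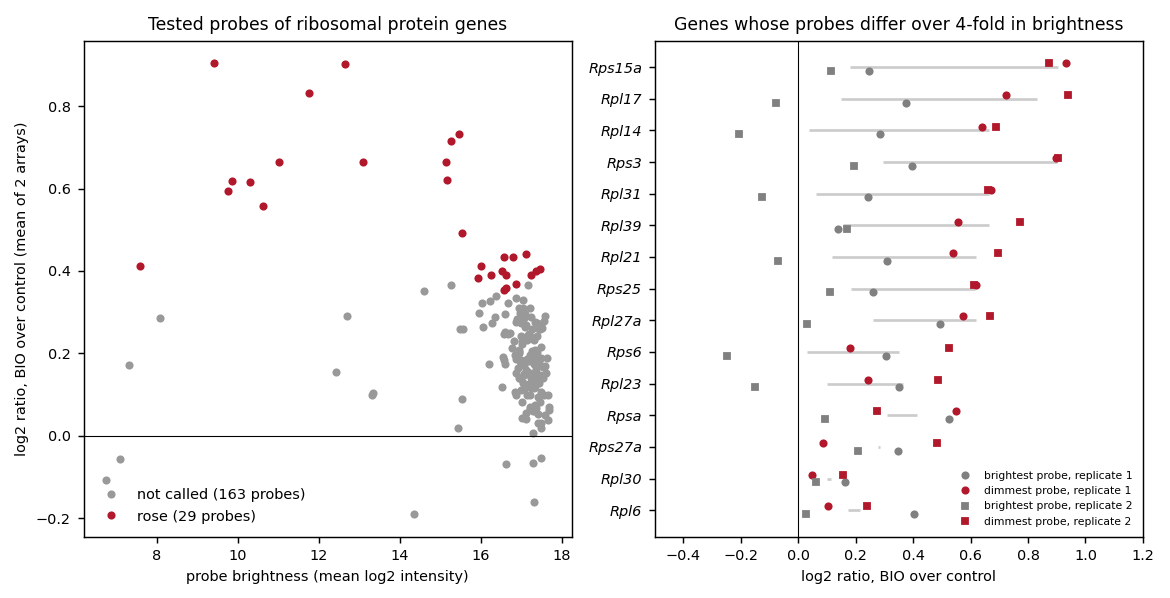
Left, mean log2 ratio of BIO over control (y axis) against probe brightness as mean log2 intensity (x axis) for the 192 tested probes of ribosomal protein genes, with the 29 risen probes in red. Right, the ratios of the brightest (grey) and dimmest (red) probe of 15 of the 16 genes with a gap over 2 log2 units, circles for replicate 1 and squares for replicate 2. Several dim probes lie near 0.6 to 0.9, above every bright probe.

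Probe placement was compared next, in mm9 coordinates of the array file. In 13 of the 16 genes the dim probe lay downstream of the bright one, by a median of 626 bases (118 to 4263), and 10 of these 13 dim probes rose. In the remaining 3 genes, Rps27a and Rpl30 among them, it lay upstream, and 1 of these 3 dim probes rose. Among the 44 genes with a gap up to 2, the dim probe lay downstream in 10, upstream in 18 and overlapping in 13. In the other 3 it was placed on another chromosome. The dim probe rose in 3, 2, 2 and 2 of these groups. The 10 downstream genes include Rps2, whose dim probe rose and is uncertain in origin, as given below. Placement was not compared in genes outside the group, so no background share can be given. The strand read from the probe coordinates equaled the RefSeq strand for all 132 probes that could be compared. The letters AATAAA, the main polyadenylation signal, were present in 31.8% of the 195 probes, in the deposited orientation, and in 12.6% of all 39429 probes. Among the 16 genes with a gap over 2, the letters were present in 4 of the 16 bright probes and 4 of the 16 dim probes. The dim probes of this set thus held them no more often than the bright ones. In Rpl14 and Rps3, picked after their values were seen, both the bright and the dim probe held these letters. The place of these probes in a transcript was not analysed here, and the letters do not show that a transcript ends there. The 30 bases around them are shown with the AATAAA in capitals, at probes chr9:120483487-120483546 and chr9:120483689-120483748 for Rpl14 and chr7:106627408-106627786 and chr7:106626430-106626489 (minus strand) for Rps3.
Rpl14 bright probe: gctacacagaatAATAAAggttctttttga
Rpl14 dim probe: gttaaccctaacaAATAAAtttcccaccaa
Rps3 bright probe: gatgctaccttgtaaagacatttAATAAAa
Rps3 dim probe: ctctgcctcagggtattatgAATAAAgtgt
The log2 ratio of the bright probe was 0.037 for Rpl14 and 0.30 for Rps3, and that of the dim probe 0.66 and 0.90. The dim probes differ from the bright ones in brightness as well as in place, and these cannot be told apart here. Some further risen probes are uncertain in origin, since those of Rpl13 and Rps4x are placed on chromosomes 4 and 3 and not at their genes on chromosomes 8 and X. That of Rps2 is placed on chromosome 17 like its brightest probe, but 18007199 bases away from it, and is uncertain as well. The paired probes of Rps20 and of Rpl36a start 5 bases apart and count as repeats of 1 sequence.

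The brightest probes of Rpl12, Rpl31 and Rps6 are shown whole, as the sequences read for a gene that rose and for a pair that did not pass. Each can be read in at least 1 frame without a stop codon, and those of Rpl12 and Rpl31 cover more of the genome than their 60 bases, so they cross a splice junction. They lie at chr2:32819082-32819298 (+), chr1:39425070-39426887 (+) and chr4:86500748-86500807 (-) in mm9.
Rpl12 probe: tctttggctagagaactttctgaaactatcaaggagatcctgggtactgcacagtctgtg
Rpl31 probe: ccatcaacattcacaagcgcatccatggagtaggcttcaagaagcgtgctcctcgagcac
Rps6 probe: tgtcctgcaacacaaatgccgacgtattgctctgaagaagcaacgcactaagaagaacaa
These gave mean ratios of 0.40, 0.060 and 0.030.

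The promoter table of RefSeq (GRCm38.p6) was then read for TOP starts, here a C with at least 4 pyrimidines after it that begins within 10 bases of the annotated start, on the gene's strand. Of the 77 core genes, 57 matched with 67 promoters. Such a run was present in 36 of 67 (53.7%), beside 30.7% of all 32851 promoters and 41.3% of those of mitochondrial ribosomal proteins. Exactly at the annotated start it was present in 19.4% of core promoters, 2.51% of all and 0 of the mitochondrial ones. Windows of 30 bases are shown for genes from the high, middle and low part of the ratios, with the run in capitals where one was found.
Rpl12 (chr2:32961700-32961729, +): ggagcaggatccgtCTTTTCggctttcggc
Rpl13a (chr7:45128728-45128757, -): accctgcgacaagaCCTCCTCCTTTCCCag
Rps18 (chr17:33955648-33955677, -): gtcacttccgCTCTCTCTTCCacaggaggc
Rpl38 (chr11:114668568-114668597, +): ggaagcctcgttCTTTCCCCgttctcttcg
Rps15a (chr7:118116130-118116159, -): tctttctgccatCTTCCCTCgccggtgagt
Rps6 (chr4:86857350-86857379, -): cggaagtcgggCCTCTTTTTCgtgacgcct
Rpl27 (chr11:101442233-101442262, +): ctctgttcctgtctgctgctcgtgctgcta
Rps4x (chrX:102189374-102189403, -): aggctgggcggagcaacccaggctccagcg
In Rpl38 and Rps15a the C stands at the annotated start itself, whereas the windows of Rpl27 and Rps4x held no such run. The mean ratio of the 34 genes with a run had a median of 0.19 and a range of 0.030 to 0.40. The 23 genes without one had a median of 0.17 and a range of -0.16 to 0.33. The groups overlapped over most of their range. A start may be annotated a few bases off, and the letters alone do not show which start the ureter used.

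Other genes of translation were read beside the ribosomal proteins. Fau, whose ribosomal part is released from a ubiquitin-like fusion, had 0.21 and did not pass. Among 17 other TOP mRNAs, 2 rose (11.8%, beside 9.14% of all genes) and 0 fell (beside 14.8%), with a median of 0.24. These were Eif4b (0.44, adjusted p = 0.0209, limma), a helper of the initiation helicase, and Eef1b2 (0.40, adjusted p = 0.0347), an exchange factor of elongation. Npm1, a nucleolar chaperone, had the highest ratio of that list (0.465) and did not pass. Of 23 initiation factors outside that list, which holds Eif4b and Eif3 subunits, 0 rose and 0 fell, with a median of 0.039.

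As background for the next lists, 9.14% of all genes tested rose and 14.8% fell. The 77 genes of the mitochondrial ribosome had a median of 0.021, with 1 risen (Mrpl45, 0.60) and 1 fallen (Mrpl41, -0.42). Their medians by array were -0.043 and 0.084, so the sign differed between the arrays and the order of the arrays was the opposite of that of the cytosolic genes. Of the 20 genes of ribosome biogenesis, 9 rose and 0 fell, with a median of 0.32 that was similar in replicate 1 (0.29) and replicate 2 (0.325). The highest was Polr1a, the largest subunit of RNA polymerase I (0.66, adjusted p = 0.00359, limma). Fbl (0.57), Nop58 (0.52) and Nop56 (0.43) belong to the box C/D particles that methylate rRNA, and Dkc1 (0.44) is the pseudouridine synthase of the H/ACA particles. Nop2, Grwd1, Wdr12 and Rrp9 also rose, by 0.36 to 0.485. The lowest was Ubtf, a transcription factor of rRNA genes (-0.36, not passed). Myc fell, with -0.83 in replicate 1 and -1.06 in replicate 2 (adjusted p = 0.000872, limma), as did Mycn (-0.41) and the Myc antagonist Mxd4 (-1.04), so 3 of 5 genes of that list fell and 0 rose. Of 11 p53 target genes, Cdkn1a (0.99) and Pmaip1 (0.88) rose and Bbc3 (-0.60) and Trp53inp1 (-0.68) fell.

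**Figure D4:**
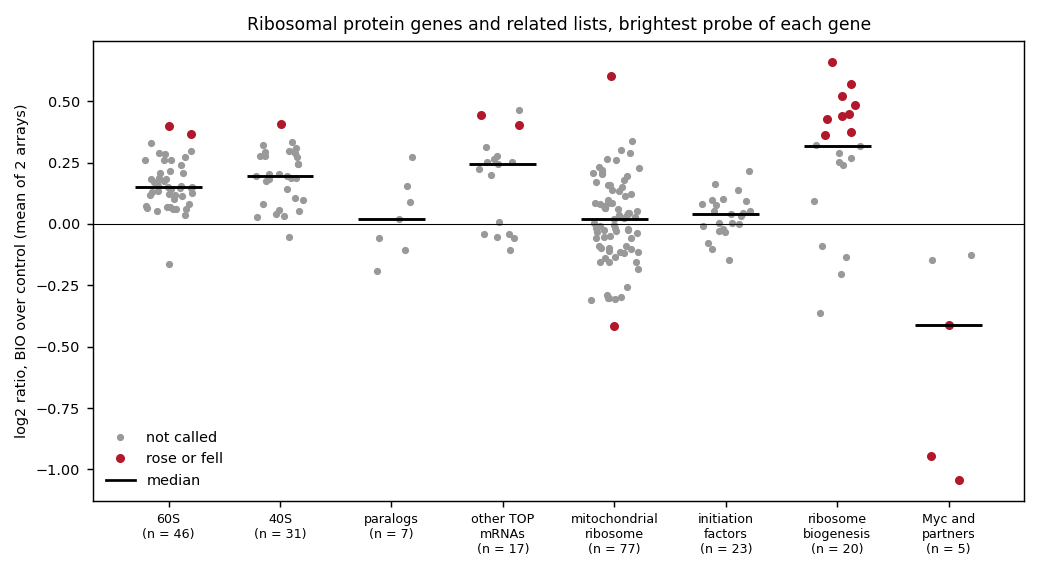
Mean log2 ratio of BIO over control (y axis) for the tested genes of each list (x axis, with the number of genes), with risen or fallen genes in red, all others in grey and the list median as a black bar. The 60S and 40S genes cluster between about -0.2 and 0.4, while 9 of 20 biogenesis genes are red and above 0.3.

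The count of risen ribosomal protein genes moved with the processing, whereas 0 fell in every version run. The loess step fits a curve through the ratios by brightness, and these genes are among the brightest probes. With each array only centered on its median, 16 of 85 genes rose and the median was 0.50 (0.85 in replicate 1 and 0.19 in replicate 2), with 12.8% of all genes called. With the signals processed by the scanner software, 0 rose and the median was 0.097, with medians of 0.10 and 0.083 on the arrays and 18.3% of all genes called. With loess fitted without these probes, the same 3 genes rose and the median was 0.20. The mean over all probes of a gene in place of the brightest gave 16 risen genes and a median of 0.20, with 26.2% of all genes called. All of these medians were above 0.

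**Figure D5:**
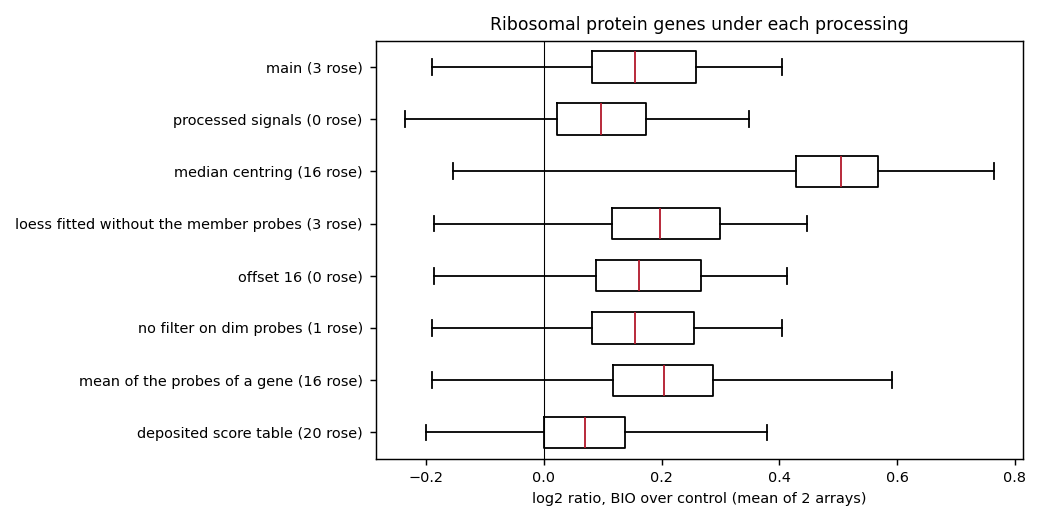
Log2 ratio of BIO over control (x axis, mean of 2 arrays) of the ribosomal protein genes under each processing (y axis, with the number of genes that rose). Boxes span the quartiles, red lines are medians and whiskers reach the lowest and highest gene. The box of median centring lies near 0.5, those of the other versions between 0 and 0.3.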

How the data were processed

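Per the file headers, the authors scanned 2-color Agilent arrays (60-base probes, mm9 coordinates) with Feature Extraction 10.7.3.1, named in the submitters' processing notes. The deposited tables give mean spot intensities and median background intensities, neither corrected nor normalized, and processed signal intensities that Feature Extraction had background-subtracted and dye-normalized. The authors also deposited a rounded score for every probe on each array, whose making is not stated. Against the scanner values it tracks a linear fold change with a sign, positive where BIO is higher (Spearman's rho 0.963 and 0.955), with its centering unknown and a median of 1 on both arrays. Its 22% of tested probes with identical values on both arrays have no spread, which affects its test. Other deposited columns of flags marked outliers and spots well above background.

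Intensities were corrected with normexp (offset 50), normalized by loess within each array with control and outlier spots at weight 0, and spots of a probe were averaged (limma 3.58.1, R 4.3.3). Probes well above background in control on both arrays or in BIO on both arrays were tested. Ratios of replicate 2 were sign-turned for the dye swap, and lmFit and eBayes tested the mean against 0 (two-sided, Benjamini-Hochberg over 28824 probes, 0.05). With 2 arrays their number limits the precision (median SE 0.111), and the offset pulls dim ratios toward 0. Every SE and interval given is the moderated one of eBayes, which pools variance across probes, and not that of the 2 arrays alone. Both arrays were taken as separate pools, as the study's methods describe. The normalized intensities printed are those after loess. The pipeline was tested on simulated data. Genes named are the 10 highest and 10 lowest ratios, all paralogs, stalk and 5S genes, untested genes, and list genes that passed or stood at an end; others were chosen after seeing values. Members and lists were chosen with earlier results of these data known. Alternatives were the processed signals, median centring, loess without these probes, offset 16, no dim filter, the mean of probes, the score table, each array alone and, added after seeing the data, the dimmest probe. Some single genes are not reported here, but enter the counts and medians.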

Additional observations from a re-analysis of the deposited data

How the results depend on the processing

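The count of risen ribosomal protein genes (3) became 0 with processed signals, with offset 16 and with the intensity (at least 100) and 1.5-fold rule, 1 without the filter on dim probes, 16 with median centring, 16 with the mean of the probes, 20 with the deposited score table and 20 with the dimmest probe, the last chosen after seeing the data. In these versions 0 fell. Rps20, Rpl12 and Rpl36a had adjusted p of 0.0971, 0.0927 and 0.101 with processed signals and 0.0669, 0.0605 and 0.0597 with offset 16, where their ratios were 0.413, 0.407 and 0.375. Without the filter on dim probes Rps20 (0.0659) and Rpl12 (0.0548) did not pass. The processed signals differ in background and dye normalization together. Under median centring the medians were 0.50 for all the genes, 0.49 for 60S, 0.54 for 40S and 0.47 for the other TOP mRNAs. Ratios near 0 changed sign. Of the 85 genes tested, 80 had a mean ratio above 0 in the main version. This became 68 with processed signals, 82 with median centring and 62 with the score table. Examples with processed signals were Rpl14 (-0.052), Rps6 (-0.061), Rplp2 (-0.037) and Rpl10l (0.016). With median centring Rps29 (0.315) and Rpl27 (0.19) changed sign. Examples with the score table were Rps27 and Rps6 (both -0.069) and Rpl39l (0.069), while Rpl14, Rpl10l and Rplp2 were among those at 0. Each array alone gave medians of 0.054 and 0.30 for all the genes, 0.028 and 0.32 for 60S, 0.087 and 0.32 for 40S, and 0.13 and 0.32 for the other TOP mRNAs, while that of the mitochondrial genes was 0.084 and -0.043. The cause of these shifts was not tested, except that the score table's identical values leave no spread. The main fit was already paired, since each ratio pairs control and BIO RNA within an array, and no further block could be added. With 2 arrays precision was limited, and the lowest ratio that passed among these genes was 0.37 (Rpl36a).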
